A study of Mus musculus with 6 samples.

Results

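The EGF family ligands and the ErbB receptors they bind were followed in whole mouse kidney, with and without an activated Notch1 transgene. The family was set as 10 genes, 6 ligands (Egf, Hbegf, Areg, Ereg, Btc and Tgfa) and 4 receptors (Egfr, Erbb2, Erbb3 and Erbb4). Of these, 9 were measured among 19937 genes, each by a single probe set carrying only its own symbol, and Areg was not analysed here. The control group was 3 kidney samples labelled as littermate wild type with a normal genotype. The NICD1 group was 3 kidney samples of genotype Pax8rtTA TREICNotch1. In this genotype Pax8 regulatory sequence drives the tetracycline-dependent activator rtTA in tubule epithelium, and rtTA switches on the intracellular part of Notch1, which signals without a ligand. Induction, age and sex are not given in the sources used here. Nothing there says that the 3 samples of a group are separate animals either, so the tests measure the spread between these samples, which may be technical. The title of the series concerns Notch in clear cell renal cancer, and the contrast asks how tubular Notch1 activation changes kidney gene expression.

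EGF family ligands are made as membrane-anchored precursors, and proteases of the ADAM family release them from the cell surface. They bind ErbB receptor tyrosine kinases, which pair with each other and signal through Ras and MAP kinases and through PI3 kinase. EGF, TGF-alpha and amphiregulin bind EGFR, while HB-EGF, betacellulin and epiregulin bind both EGFR and ErbB4. ErbB2 has no known ligand of its own, and ErbB3 has a weak kinase and is a receptor for neuregulins. The kidney is a major site of EGF precursor synthesis, in the thick ascending limb of Henle and the distal convoluted tubule, and EGF is abundant in urine. Released EGF promotes magnesium uptake through the channel TRPM6 in the distal convoluted tubule.

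The upstream sequences of the ligand with the large fall and of a ligand and receptor that were both higher are shown first, because they are the stretches on which a transcriptional regulator such as RBPJ, through which cleaved Notch reaches DNA, could act near the start site. They are the 250 bases before the start site in RefSeq, build GRCm38.p6, read 5′ to 3′ in the direction of transcription. Capitals mark the GC box GGGCGG on either strand and the AT-rich element TTTAAA.
Egf, chr3:129755323-129755572, minus strand: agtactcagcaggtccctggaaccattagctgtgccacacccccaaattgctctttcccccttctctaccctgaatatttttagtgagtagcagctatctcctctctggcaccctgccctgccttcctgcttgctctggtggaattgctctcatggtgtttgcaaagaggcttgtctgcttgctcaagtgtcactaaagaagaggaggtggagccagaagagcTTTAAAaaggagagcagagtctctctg
Tgfa, chr6:86194972-86195221, plus strand: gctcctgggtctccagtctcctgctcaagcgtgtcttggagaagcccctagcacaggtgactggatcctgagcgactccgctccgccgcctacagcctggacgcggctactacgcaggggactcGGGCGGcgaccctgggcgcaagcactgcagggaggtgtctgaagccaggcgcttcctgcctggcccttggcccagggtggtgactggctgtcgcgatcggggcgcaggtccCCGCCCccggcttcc
Egfr, chr11:16751953-16752202, plus strand: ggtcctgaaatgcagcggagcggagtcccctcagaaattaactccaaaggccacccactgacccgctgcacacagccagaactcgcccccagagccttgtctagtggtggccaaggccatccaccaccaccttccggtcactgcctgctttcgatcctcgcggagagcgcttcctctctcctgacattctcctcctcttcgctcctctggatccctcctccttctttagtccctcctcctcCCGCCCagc
The Egf sequence was 50.4% G or C, that of Egfr 60.8% and that of Tgfa 69.2%, against a median of 52.4% over 32851 promoters in the table. The Egf sequence held no GC box and 1 TTTAAA, beginning 27 bases before the start site shown. The sequence of the other Egf start site, 52.0% G or C, held neither. TTTAAA was searched after the sequences were seen. Tgfa held 2 GC boxes and Egfr held 1. The element TTTAAA occurred in 12.1% of all promoters and the GC box in 32.7%.

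Promoters of 7 members were found in the table, 6 of them measured on the arrays, with 2 start sites for Egf. The RBPJ core TGGGAA, searched on both strands, was in none of the 7 upstream sequences of measured members (Egf with both of its start sites, Btc, Tgfa, Egfr, Erbb2 and Erbb4), and it occurred in 21.6% of all promoters. Its longer form GTGGGAA, which contains the core, occurred in 5.42% of all promoters, and the TATA motif TATAAA in 12.4%. Neither was in those 7 sequences, while Areg held 1 of each. These are letter matches in a short window and say nothing of binding.

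The data are log2 expression values after RMA normalization. RMA puts arrays on a shared distribution and compresses differences of dim genes, so levels are mainly compared here between arrays for the same gene. The exceptions are the kidney identity check, the starting levels of Egf and its segment markers, and where Ereg lies among all genes. Sizes of differences are also compared across genes, and that compression is part of them. The arrays had median log2 values of 5.26 to 5.29 in controls and 5.38 to 5.41 in NICD1 kidneys over the 19937 genes. Correlations between arrays across genes, which are not independent replicates, were 0.985 to 0.994 within groups and 0.912 to 0.935 between them. Notch1, the gene carried by the transgene, stood at 6.65, 6.59 and 6.45 in control replicates 1 to 3 and at 10.29, 10.30 and 9.99 in the NICD1 kidneys. Its single probe set does not separate the transgene from the endogenous transcript. Of 7 genes fixed as a check of kidney identity, 6 were measured, including Umod at 12.01 or more and Lrp2 at 8.60 or more on every array. The podocyte gene Nphs1 stood at 4.27 to 5.65. No detection calls were used here, so a low value does not say whether a gene was detected.

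Differences are NICD1 minus control, with standard errors from limma. A gene is called where the limma p-value, adjusted over all 19937 genes, is under 0.05. Of the 9 measured members, 5 were called higher, 1 lower and 3 were not called. Of all genes 32.7% were called, 17.8% as higher and 14.9% as lower. The same all-gene shares are the background for the counts of called genes in the lists below. The 3 NICD1 values lay wholly on one side of the 3 control values for 6 members, 5 above and 1 below. Over all genes the share was 43.4%, 23.7% above and 19.7% below. The family was selected on these same NICD1 and control values, in particular the fall of Egf, so they are given as a description and without p-values. The members' median difference was 0.50 log2, against 0.015 for all genes. Centring each array on its median shifted the all-gene median to -0.11 and the share of calls that were higher from 54.4% to 39.4%. The differences below are on the deposited scale unless another is named.

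**Figure D1:**
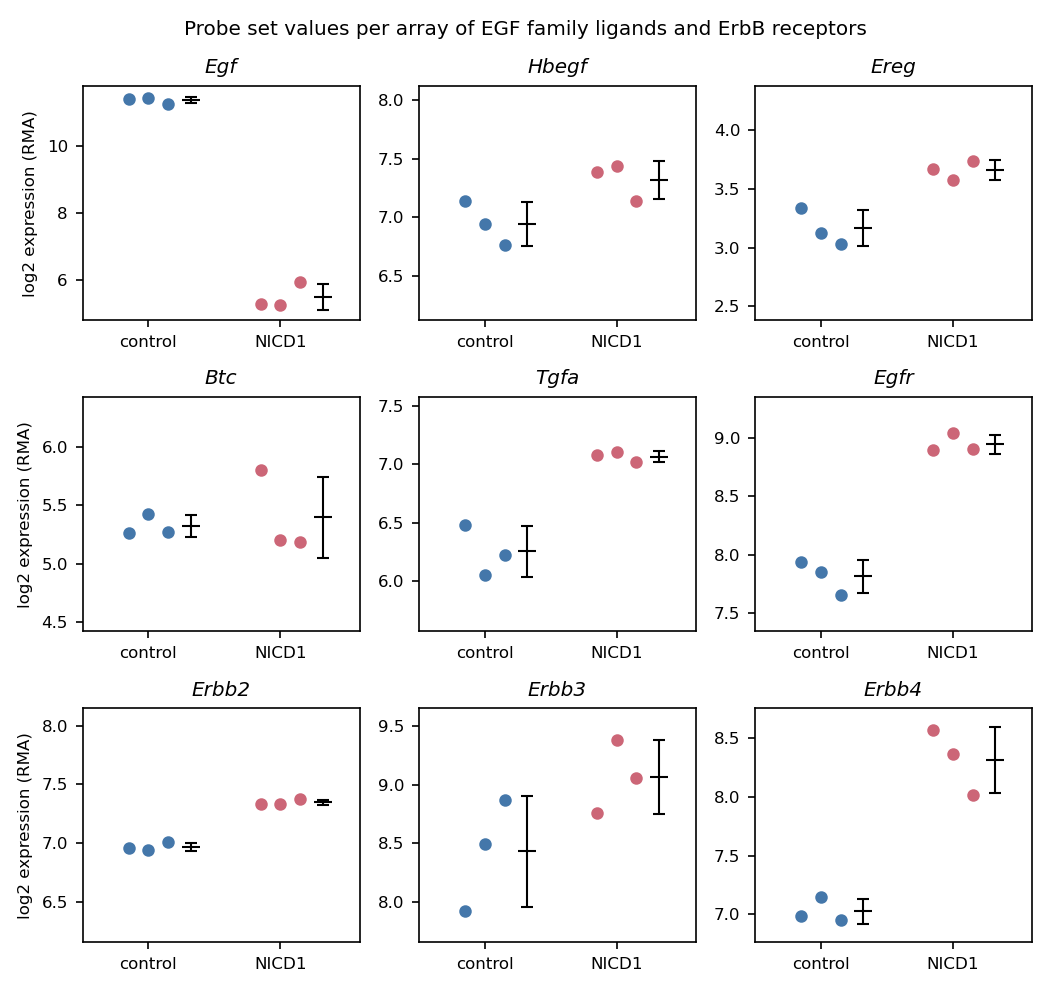
Log2 expression of the 9 measured members in each array (points; control blue, NICD1 red, replicates 1 to 3 from left to right), with the group mean and SD in black. Each panel has its own axis: Egf drops from above 11 to below 6, Egfr, Erbb4, Tgfa, Erbb2 and Ereg are higher in all 3 NICD1 arrays, and Hbegf, Btc and Erbb3 overlap.

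Among the ligands, Egf fell while Tgfa and Ereg were higher. Egf, the main renal ligand, stood at 11.42, 11.45 and 11.27 in control replicates 1 to 3 and at 5.28, 5.26 and 5.94 in NICD1 replicates 1 to 3. The groups were 5.33 log2 apart at their nearest values, and NICD1 replicate 3 lay 0.67 log2 above the mean of the other NICD1 arrays. The means were 11.38 ± 0.10 and 5.49 ± 0.39 (SD, n = 3), a difference of -5.88 log2 (SE 0.18) or 59.0-fold lower. Only 11 of the 19937 genes had a larger difference in either direction. Leaving out each array in turn gave differences between -6.11 and -5.77 log2. In RNA from whole kidney, fewer cells of a type and less RNA per cell cannot be told apart.

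Tgfa, which encodes TGF-alpha, a ligand of EGFR, stood at 6.48, 6.05 and 6.23 in controls and 7.08, 7.10 and 7.02 in NICD1 kidneys. The NICD1 arrays lay close together, and all were above the highest control by at least 0.53 log2. The mean difference was 0.81 log2 (SE 0.12), or 1.75-fold. Ereg, encoding epiregulin, stood at 3.33, 3.13 and 3.03 in controls and 3.67, 3.57 and 3.74 in NICD1 kidneys, without overlap. Its difference was 0.50 log2 (SE 0.11), or 1.41-fold. Ereg lay below the lower quartile of genes on every array, which was between 3.76 and 3.90.

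Hbegf and Btc did not pass. Hbegf, encoding heparin-binding EGF, stood at 7.14, 6.94 and 6.76 in controls and 7.39, 7.43 and 7.13 in NICD1 kidneys. NICD1 replicate 3 and control replicate 1 met at 7.13 and 7.14, and the other NICD1 arrays lay above all controls. The difference of 0.37 log2 (SE 0.13) passed without control replicate 1 (0.47) or without NICD1 replicate 3 (0.47), and with quantile normalization (0.40), but it was 0.25 and not called after centring. Btc, encoding betacellulin, stood at 5.26, 5.43 and 5.27 in controls and 5.80, 5.20 and 5.19 in NICD1 kidneys. NICD1 replicate 1 was the highest array and the other NICD1 arrays were the lowest. Its difference of 0.08 log2 (SE 0.16) turned to -0.12 without NICD1 replicate 1 and to -0.05 under quantile normalization and under centring, and was not called in any of these.

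All 4 receptors had higher means in NICD1 kidneys, and 3 of them were called. Erbb4, the receptor that also binds neuregulins, stood at 6.98, 7.14 and 6.95 in controls and 8.57, 8.37 and 8.01 in NICD1 kidneys. The lowest NICD1 array was 0.87 log2 above the highest control. The difference was 1.29 log2 (SE 0.15), or 2.45-fold.

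Egfr, the receptor for EGF and TGF-alpha, stood at 7.94, 7.86 and 7.66 in controls and 8.90, 9.04 and 8.90 in NICD1 kidneys. Its groups were 0.96 log2 apart. The difference was 1.13 log2 (SE 0.11), or 2.19-fold. Erbb2, the shared partner of the other receptors, stood at 6.95, 6.94 and 7.01 in controls and 7.33, 7.33 and 7.37 in NICD1 kidneys. Its difference was the smallest of the 4 and its ranges the narrowest of the 9 members, 0.067 log2 from lowest to highest control array and 0.038 among NICD1 arrays. Its difference of 0.38 log2 (SE 0.092), or 1.30-fold, was 0.26 after centring and then not called.

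Erbb3, whose product needs another ErbB to signal, stood at 7.93, 8.50 and 8.87 in controls and 8.76, 9.38 and 9.06 in NICD1 kidneys. Its controls spanned 0.95 log2, the widest control range among the 9 members, and NICD1 replicate 1 lay below control replicate 3. The difference of 0.64 log2 (SE 0.24) was not called. It was called without control replicate 3 (0.86) or NICD1 replicate 1 (0.79), and under quantile normalization, where it was 0.92, and it was 0.38 and not called without control replicate 1.

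**Figure D2:**
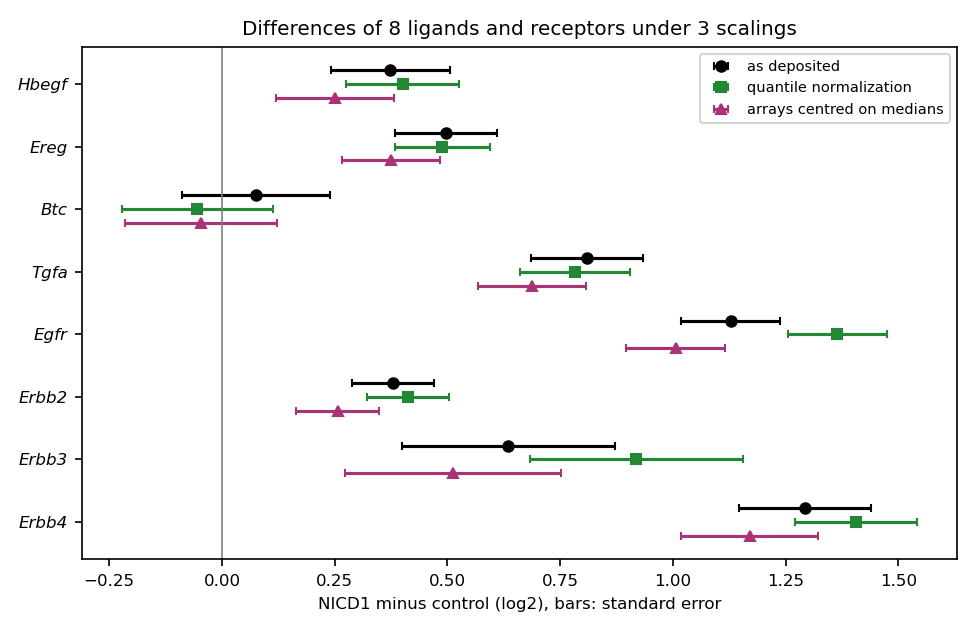
Difference NICD1 minus control in log2 (horizontal axis; bars are standard errors) for the 8 measured members other than Egf, with the values as deposited (black circles), quantile normalized (green squares) and centred on array medians (purple triangles). Egfr stays between 1.01 and 1.37 and Erbb4 between 1.17 and 1.41, while Btc lies on both sides of 0.

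The segments that make EGF were examined through 15 measured marker genes, 8 of the thick ascending limb and 7 of the distal convoluted tubule, of which 11 fell and 1 rose. None of the 15 fell as far as Egf, but Egf was selected for its fall and started at 11.38. The markers' control means ran from 6.10 (Trpm6) to 12.08 (Umod), and those that started low had less room to fall. The outcome of this comparison was thus partly fixed in advance. In the thick limb, 5 of 8 markers fell, 1 rose and 2 did not pass, with a median of -1.04 log2. Slc12a1, the sodium-potassium-chloride cotransporter of this segment, fell the most there, from 10.50 ± 0.13 to 7.78 ± 0.38 (-2.71 log2, SE 0.18, adjusted p = 4.98e-06). The prostaglandin receptor Ptger3 (-2.31 log2), the claudin Cldn10 (-1.56) and the chloride channel subunit Bsnd (-1.07) fell with it. Umod, the uromodulin gene of the same cells, was 0.32 log2 higher (adjusted p = 0.0403). The Umod call was lost without control replicate 1 (0.30) or 3 (0.28) and without NICD1 replicate 1 (0.29) or 2 (0.31), and after centring (0.20). With quantile normalization the Umod difference was 0.58.

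In the distal convoluted tubule 6 of 7 markers fell, 0 rose and 1 did not pass, with a median of -2.38 log2. The calcium-binding protein Calb1 fell from 9.37 ± 0.58 to 5.22 ± 0.31 (-4.15 log2, SE 0.27, adjusted p = 4.67e-06), as did the parvalbumin gene Pvalb (-3.41), the FGF23 co-receptor Kl (-2.68) and the thiazide-sensitive cotransporter Slc12a3 (-2.38). Averaged over the 7 markers, the level was 7.91 to 8.24 in controls and 6.05 to 6.14 in NICD1 kidneys. The thick limb list averaged 8.52 to 8.73 and 7.41 to 7.71. The part of these marker changes in the fall of Egf was not tested.

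**Figure D3:**
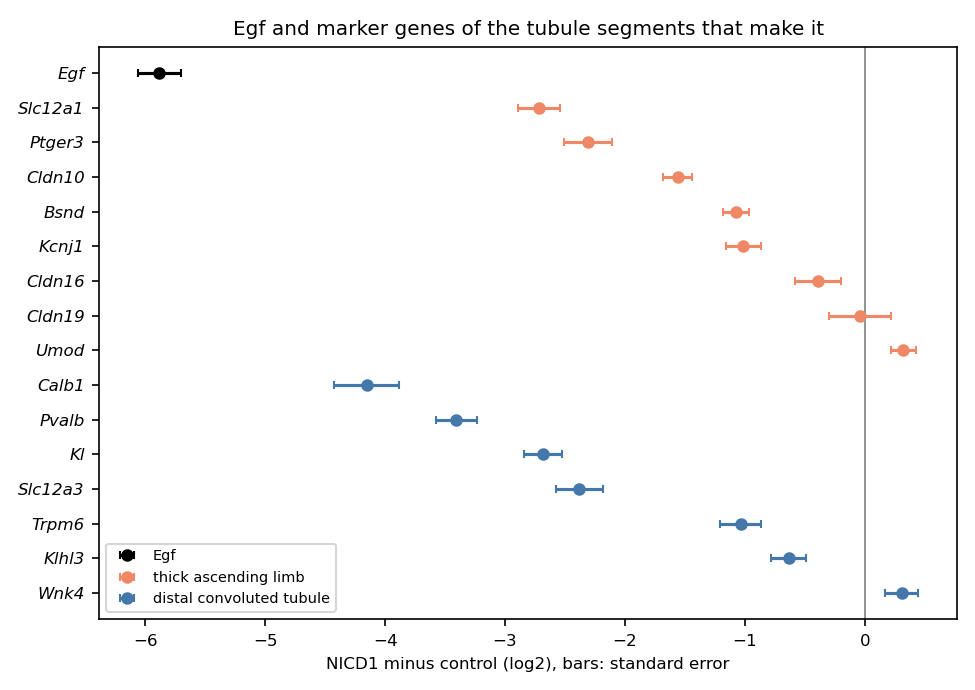
Difference NICD1 minus control in log2 (bars are standard errors) for Egf (black) and the measured markers of the thick ascending limb (orange) and distal convoluted tubule (blue). Egf lies at -5.88, beyond Calb1 at -4.15, and Umod and Wnk4 lie to the right of 0.

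The genes with the profile nearest to Egf included Slc22a6 of the proximal tubule list. Likeness was the Euclidean distance over the 6 arrays after subtracting each gene's control mean, so it follows the size of the fall and its spread among arrays. The 5 nearest were Slc22a19 (distance 0.70 log2), Ugt2b37 (0.78), Slc22a22 (0.79), Slc22a6 (0.87) and Akr1c14 (0.87). Slc22a6 encodes the organic anion transporter OAT1 of the proximal tubule, Slc22a19 and Slc22a22 are organic ion transporters of the same family, Ugt2b37 is a glucuronosyltransferase and Akr1c14 an aldo-keto reductase. Slc22a19 stood at 9.48, 9.77 and 9.32 in controls and 3.67, 4.02 and 3.99 in NICD1 kidneys. Ugt2b37 and Slc22a19 belong to families of near-identical genes whose probes can share signal, so their values are uncertain to that extent.

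In the proximal tubule list 6 of 6 markers fell, with a median of -3.60 log2. Its 4 members with the lowest p were Slc22a6 (-5.51 log2), the phosphate transporter Slc34a1 (-4.73), the glucose transporter Slc5a2 (-4.48) and the endocytic receptor gene Cubn (-2.72). For 5 of the 6 the highest NICD1 array was replicate 3, as for Egf. Among the thick limb and distal convoluted tubule markers the same held for Slc12a1, Slc12a3 and Trpm6, and not for the rest. The share over all genes was not computed. The proximal tubule list averaged 11.06 to 11.13 in controls and 6.87, 7.59 and 8.09 in NICD1 replicates 1 to 3.

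**Figure D4:**
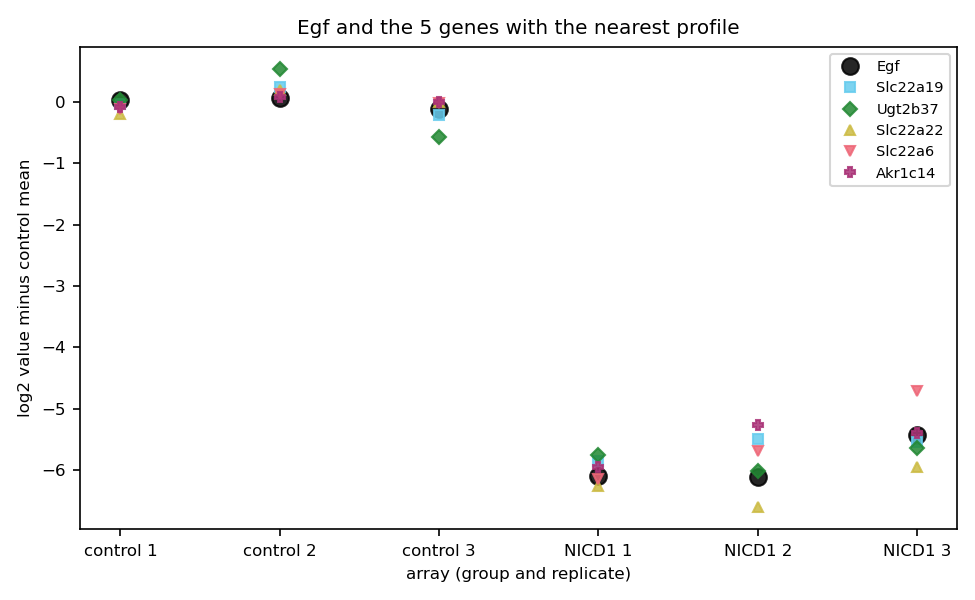
Log2 value minus the gene's control mean (vertical axis) in each of the 6 arrays for Egf (black circles) and the 5 genes with the nearest profile (coloured symbols). All NICD1 values lie far below the control means, with mean differences from -6.28 (Slc22a22) to -5.51 log2 (Slc22a6). The highest of the Egf values in NICD1 arrays is that of replicate 3.

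The other ErbB ligands gave 1 higher gene of 5 measured and 0 lower, with a median difference of 0.0054 log2. Nrg1, encoding neuregulin 1, a ligand of ErbB3 and ErbB4, stood at 5.51, 5.56 and 5.74 in controls and 6.52, 7.01 and 6.88 in NICD1 kidneys. It rose by 1.20 log2 (SE 0.14, adjusted p = 0.000154), or from 5.60 ± 0.12 to 6.81 ± 0.25. The rest were not called: Nrg2 differed by 0.10, Nrg3 by -0.25, Nrg4 by -0.03 and the epithelial mitogen gene Epgn by 0.01 log2. Nrg3 was called lower after centring (-0.37), and the signs of Nrg2, Nrg4 and Epgn changed between settings.

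Among 11 genes of ligand shedding and release, 6 rose, 1 fell and 4 did not pass (median 0.40 log2). The gene that fell was Timp3, a secreted inhibitor of ADAM17, the protease that releases several EGFR ligands. Timp3 stood at 11.16, 11.33 and 11.20 in controls and 8.55, 8.79 and 8.64 in NICD1 kidneys, a difference of -2.57 log2 (SE 0.11, adjusted p = 5.39e-07). The risen genes included Rhbdf2 and Rhbdf1, encoding the iRhom proteins that carry ADAM17 to the cell surface, by 1.09 and 0.67 log2, and the rhomboid protease Rhbdl2 by 0.99. Rhbdf2 stood at 5.83, 5.77 and 5.67 in controls and 6.85, 6.83 and 6.87 in NICD1 kidneys (adjusted p = 2.71e-05). The sheddase genes Adam10 and Adam17 were called at 0.51 and 0.40 log2. The Adam17 call was lost after centring (0.28), with the replicate block, and when control replicate 1 (0.38) or 2 (0.40) or NICD1 replicate 1 (0.31) or 2 (0.41) was left out. After centring 4 genes of the list were higher and 2 lower.

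Of 12 genes of receptor inhibition and degradation, 3 rose, 1 fell and 8 did not pass (median 0.16 log2). The share called was near the 32.7% over all genes. With quantile normalization or centring 2 were higher and 2 lower. Errfi1, encoding MIG6, a feedback inhibitor that binds the ErbB kinase domain, was the member that fell. It stood at 10.93, 10.65 and 10.44 in controls and 9.17, 9.62 and 8.81 in NICD1 kidneys, a difference of -1.47 log2 (SE 0.20, adjusted p = 0.000447). Cbl, a ubiquitin ligase that sends activated EGFR to degradation, rose by 0.75 log2 (adjusted p = 0.00155), and its partner Sh3kbp1 by 0.72. The transmembrane inhibitor Lrig1 rose by 0.39 log2 (adjusted p = 0.0425), but that call was lost without control replicate 2 (0.32) or 3 (0.33), without NICD1 replicate 2 (0.37) or 3 (0.37), under quantile normalization (0.29) and after centring (0.27).

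Of 16 measured adaptor, Ras-MAP kinase and PI3 kinase genes, 4 were called higher, 2 lower and 10 neither, at a median of 0.14 log2. Over all genes 32.7% were called, a share not far from that of this list. The small GTPase Nras rose by 0.96 log2 (adjusted p = 0.000151), the kinases Akt1 and Src by 0.81 and 0.54, and the adaptor Shc1 by 0.54. Map2k2 and Braf, the 2 called lower, differed by -0.34 and -0.40 log2 and were named after their values were seen. That count of 2 went to 0 without control replicate 1 or 2 and to 1 when control replicate 3 or either of NICD1 replicates 2 and 3 was left out. Quantile normalization gave 7 higher and 0 lower, and centring 4 higher and 4 lower. Without NICD1 replicate 3, 6 were higher.

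Feedback and target genes of MAP kinase signalling were mixed. Of 13, 4 rose, 1 fell and 8 did not pass, with a median of 0.11 log2. This too was not far from the 32.7% called over all genes. The Ras pathway inhibitors Spry1 and Spred1 rose by 0.97 and 0.56 log2 and the phosphatase gene Dusp5 by 0.66 (adjusted p = 0.000408, 0.00495 and 0.00079). Dusp4, another MAP kinase phosphatase, fell by 0.48 log2 (adjusted p = 0.0223). The Dusp4 call was lost without control replicate 1 (-0.49) or 3 (-0.44) and without NICD1 replicate 1 (-0.39) or 3 (-0.43). After centring and without NICD1 replicate 2, 3 genes of the list were higher and 2 lower, and with quantile normalization or without the dimmest 40% of genes 4 were higher and 2 lower. Dusp6, a widely used readout of ERK activity, differed by 0.08 log2 (SE 0.17, adjusted p = 0.792) and was named after its value was seen; its sign changed after centring and without control replicate 2 or NICD1 replicate 2.

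Of 4 magnesium handling genes, 2 were called lower, 1 higher and 1 neither, at a median of -0.55 log2. Trpm6, the channel that EGF stimulates, stood at 6.45, 5.88 and 5.97 in controls and 4.84, 5.06 and 5.29 in NICD1 kidneys (-1.04 log2, SE 0.17, adjusted p = 0.00126). Trpm6 is also a marker of the distal convoluted tubule, where 6 of 7 markers fell. Cnnm2, which takes part in magnesium transport across the basolateral membrane, fell by 0.96 log2 (adjusted p = 6.50e-05). The magnesium transporter Slc41a1 rose by 0.74 (adjusted p = 0.000296), and Slc41a3 differed by -0.14 (adjusted p = 0.381; -0.27 with quantile normalization, -0.26 after centring and -0.08 without control replicate 1).

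**Figure D5:**
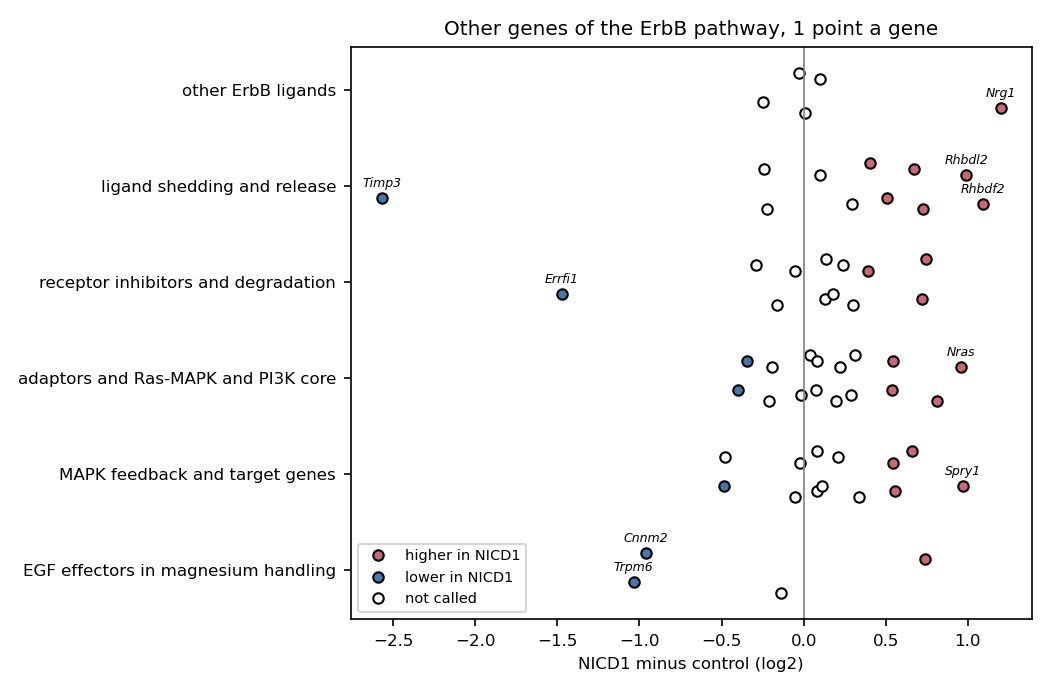
Difference NICD1 minus control in log2 for each measured gene of 6 lists around the ErbB pathway, 1 point a gene and vertical offsets only for legibility (red, called higher; blue, called lower; white, not called). Timp3 at -2.57 and Errfi1 at -1.47 stand to the left and Nrg1 at 1.20 to the right.

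Markers of other cell types of the kidney differed between the groups as well. Of 8 macrophage markers, 7 rose, 0 fell and 1 did not pass. The mean level of the list was 4.82 to 4.98 in controls and 6.57 to 7.42 in NICD1 kidneys, highest in replicate 1. Cd14, Lyz2, Itgam and C1qb rose by 2.79, 3.94, 2.41 and 2.47 log2, while Csf1r, the receptor for the macrophage growth factor CSF1, differed by -0.05, or 0.03 without NICD1 replicate 3. Tgfa, Ereg and Hbegf are also made by myeloid cells, and the part of these cells in their values was not tested.

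The remaining lists gave the following. Of 7 T cell and innate lymphoid markers 3 rose and 0 fell, and 1 rose without control replicate 2. Cd8a rose by 1.38, Il7r by 0.48 and Cd3e by 0.30 log2, and Gata3 was not called at 0.64. Cd3d, Cd4 and Cd3g were not called either, at -0.14, 0.05 and 0.05, and their groups overlapped. Gata3 was 0.21 without NICD1 replicate 1, and was called at 0.92 without NICD1 replicate 2. The Cd3e call was lost with any array but control replicate 1 left out (0.26 to 0.30), with quantile normalization (0.19), after centring (0.18) with trended and robust variances and with the replicate block, and that of Il7r without control replicate 2 (0.38). The list's mean level was 4.22 to 4.31 in controls and 4.50 to 4.92 in NICD1 kidneys. Of 7 fibroblast markers 4 rose and 0 fell, with Col1a1, Col1a2, Pdgfrb and Acta2 higher by 2.96, 2.20, 0.70 and 0.94 log2. The others were not called and had negative differences: Dcn -0.77, Lum -0.30 and Pdgfra -0.07. Dcn stood at 7.15, 7.53 and 5.45 in NICD1 replicates 1 to 3. After centring 1 marker of the list was called lower. The list's mean level was 6.45 to 6.67 in controls and 6.86 to 7.64 in NICD1 kidneys. The Acta2 call was lost without control replicate 2 (0.73) and without NICD1 replicate 1 (0.70) or 2 (0.90).

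Of 5 endothelial markers 3 fell and 0 rose. Tek, Kdr and Emcn differed by -1.76, -1.54 and -1.21 log2, while Pecam1, at -0.67, and Cdh5, at -0.04, were not called. Cdh5 stood at 6.29, 6.37 and 6.18 in controls and 6.65, 6.49 and 5.57 in NICD1 replicates 1 to 3. Pecam1 was -0.23 without NICD1 replicate 3. The mean level of the endothelial list was 7.07 to 7.08 in controls and 6.45, 6.27 and 5.36 in NICD1 replicates 1 to 3, lowest in replicate 3. Of 5 principal cell markers 2 fell, Aqp3 (-2.52 log2) and Aqp2 (-1.05), and 2 rose, Scnn1g and Scnn1b by 1.23 and 0.86 log2. Aqp2 was no longer called when control replicate 1 was left out (-0.93), nor Scnn1b when control replicate 2 (0.82) or 3 (0.83) was. Scnn1b was 0.57 and called without NICD1 replicate 1. All 5 measured proliferation genes rose, with a median of 3.24 log2 and with Mcm6, Top2a, Mki67 and Pcna higher by 3.61, 3.41, 3.24 and 1.23. With the mean over its probe sets Top2a was 2.003 higher. The part of these lists in the values of the receptors was not tested.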

How the data were processed

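Total RNA of 6 samples of whole mouse kidney was hybridised to 1 Affymetrix array each, after one-cycle biotin labelling. The values were normalized in GeneSpring with RMA16, per the labels' protocols. The deposited table holds log2 values of 34760 probe sets. The GeneSpring version and the genome build of the probe sets are not given in the sources used here. A gene was represented by its brightest probe set on average among those that the platform annotation gives only its symbol. A probe set shared by Erbb2 and Sympk was not used. The groups were tested with limma (version 3.58.1, R 4.3.3, moderated variances, two-sided, Benjamini-Hochberg adjustment over 19937 genes). The code was also run on simulated data with independent noise and fewer changed genes than were called here. That run does not measure the error rate in these data. Members, lists and tests were chosen with earlier results of these data known.

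Named genes were the 9 measured members, Notch1, every gene of the ErbB ligand and kidney identity lists, the up to 4 lowest p-values of each other list, and the 5 nearest profiles to Egf. Of the other genes, those given as examples beyond these 4 were picked with their values known. They were Adam10, Adam17, Map2k2, Braf, Dusp6, Wnk4, Csf1r, Dcn, Lum, Pdgfra, Cd3d, Cd3g, Cd4 and Cdh5. The marker lists were thick ascending limb, distal convoluted tubule, proximal tubule, principal cells, macrophages, T cells and innate lymphoid cells, fibroblasts, endothelium, proliferation and kidney identity (of its 6 measured genes 2 were higher, Pax8 and Umod, and 4 lower; Umod's call was lost in the settings given for it). Upstream sequences are those of RefSeq; GC box, TATAAA and TTTAAA were searched after values or sequences were seen. Alternatives covered probe set summary, scaling, dim genes, variance model, array weights, threshold, replicate block and leaving out each array. The number of arrays limits the precision.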

Additional observations from a re-analysis of the deposited data

How the results depend on the processing

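Over 8 alternatives with all arrays and 6 that leave out 1 array, 125 member differences were recomputed (Ereg has no value without the dimmest 40% of genes). Of these, 107 kept their direction and side of the threshold, 12 became called, 2 lost their call and 4 changed sign. Egf, Tgfa, Ereg, Egfr and Erbb4 kept direction and call wherever they were computed. Hbegf became called with quantile normalization (0.40 log2), without the dimmest 40% of genes (0.37), with trended and robust variances (0.37), with array weights (0.44) and with the replicate block (0.37), and ranged from 0.28 to 0.47 when each array was left out. Erbb3 became called with quantile normalization (0.92), array weights (0.68) and the replicate block (0.635), with a range of 0.38 to 0.86. Erbb2 lost its call after centring (0.26) and at an adjusted p under 0.01 (0.38), with a range of 0.37 to 0.40. Btc turned negative with quantile normalization (-0.055), centring (-0.047) and array weights (-0.014), and ranged from -0.12 to 0.18. Nrg2 turned negative with quantile normalization (-0.025) and centring (-0.024). Epgn did so with quantile normalization (-0.017), centring (-0.12) and array weights (-0.024), ranging from -0.049 to 0.065, and Nrg4 ranged from -0.088 to 0.050. Dusp6 was -0.041 after centring and ranged from -0.082 to 0.26, and Csf1r from -0.17 to 0.030. The cause was not tested in these cases.

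The replicate numbers are shared by the groups, and the main fit did not treat the samples as paired. Same-numbered deviations correlated at -0.07 to -0.01, and all pairs, these included, at -0.07 to 0.07. With 3 samples a group these correlations cannot decide whether the samples are paired. The fit with the replicate block called 3219 genes higher and 2762 lower, against 3551 and 2978 without it. Under the block 7 members were higher and 1 lower.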
